A study of Neurospora discreta with 48 samples.

Results

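The 723 gene models described here are those whose ID carries the name of SNAP, in a table of 9280 gene models of the filamentous ascomycete Neurospora discreta. They make up 7.79% of the table and were chosen by the text snap in the ID alone, so no measured value took part in the choice. SNAP is a gene finder that reads genomic DNA with a statistical model of what coding sequence looks like and needs neither a related protein nor a transcript. Genewise lays a known protein along the genome and builds the model under that alignment. Predictions of the first kind can find genes that have no relative among known proteins, and they can also mark stretches that are not genes. The SNAP models were set against 3557 models whose ID contains Genewise or e_gw and 1866 models whose ID contains _kg, a tag that the table does not expand. The remaining 3134 models carry none of these tags, and no ID carried tags of more than 1 class.

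The RNA came from pads of mycelium whose source is given as mycelia and conidia, the vegetative hyphae and the asexual spores. The pads were entrained to cycles of 12 h light and 12 h dark at 25 °C in medium low in glucose. In the authors' deposited table, 1 comparison of 2 wild isolates sampled after 15 min of light was given, with 3 replicate libraries of each: FGSC8831, the African parent, labelled high RI, and FGSC8578, the North American parent, labelled low RI. The labels do not expand RI and do not say whether replicates came from separate cultures. The other 42 of the 48 libraries (both parents at the other times, and 2 progeny strains of their cross) were not used here.

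The columns call the arms B and A without naming the strains. The order of the strain names in the table's title would make B FGSC8831 and A FGSC8578, but the columns themselves do not say so, and the arms are called B and A throughout. Each arm has 1 mean of counts divided by size factors, here called its level in normalized counts, and the level of a model is the mean over both arms. With 1 mean per arm there is no value for a single library and no SD, and the error enters through the authors' DESeq and edgeR tests. The size factors that the low means implied ran from 0.866 to 1.15 in B and from 1.04 to 1.11 in A. Read depth in counts is unknown. The IDs are not paired with gene names, so the labelled tissue was not checked against markers and the models are given by position and values alone.

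SNAP models were short. Their median span from start to end was 812 bp (quartiles 367 and 1735.5 bp), against 1952 bp for Genewise or e_gw models, 1337.5 bp for _kg models and 1716 bp for all models in the authors' deposited table. Spans ran from 180 to 8968 bp. Under 300 bp lay 134 SNAP models, or 18.5%, compared with 1.38% of Genewise or e_gw models, 11.5% of _kg models and 4.88% of all models. The long end was not empty, since 87 SNAP models, or 12.0%, spanned 2400 bp or more, against 33.6% of Genewise or e_gw models and 14.3% of _kg models.

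A coding region without introns and without untranslated ends has a span that is a multiple of 3, although spans of other models can be multiples of 3 as well. Of the SNAP models, 402 had such a span, or 55.6% (95% exact binomial interval 51.9 to 59.3%), against 37.5% of Genewise or e_gw models and 33.1% of _kg models. The share went with length: it was 86.6% among the SNAP models under 300 bp and 34.5% among those of 2400 bp or more. Genewise or e_gw models under 300 bp had nearly the same share, 85.7%, whereas short _kg models had 34.1%. SNAP models seldom shared bases with a neighbouring model. Such an overlap was found for 11 of them, or 1.52%, against 5.90% of Genewise or e_gw models and 7.82% of _kg models. They lay on both strands, with 369 on the plus strand.

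SNAP models also had low levels. In the authors' deposited table their median level was 21.7 normalized counts (quartiles 4.75 and 144), against 284 for Genewise or e_gw models, 559 for _kg models and 226 for all models. Divided by span, the medians were 30.0 normalized counts per kb for SNAP models, 136 for Genewise or e_gw models and 379 for _kg models. The order of the classes was thus the same per kb of span. Span includes any introns, so these are not values per length of transcript. A level under 10 was listed for 275 SNAP models, or 38.0%, and for 5.54% of Genewise or e_gw and 8.63% of _kg models. At the top, 24 SNAP models, or 3.32%, reached a level of 1000 or more, against 15.9% of Genewise or e_gw and 38.0% of _kg models. No model of any class was listed at 0 in both arms, so every SNAP model in the table had counts in at least 1 arm. In bulk RNA, fewer cells of a type and less RNA per cell cannot be told apart.

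**Figure D1:**
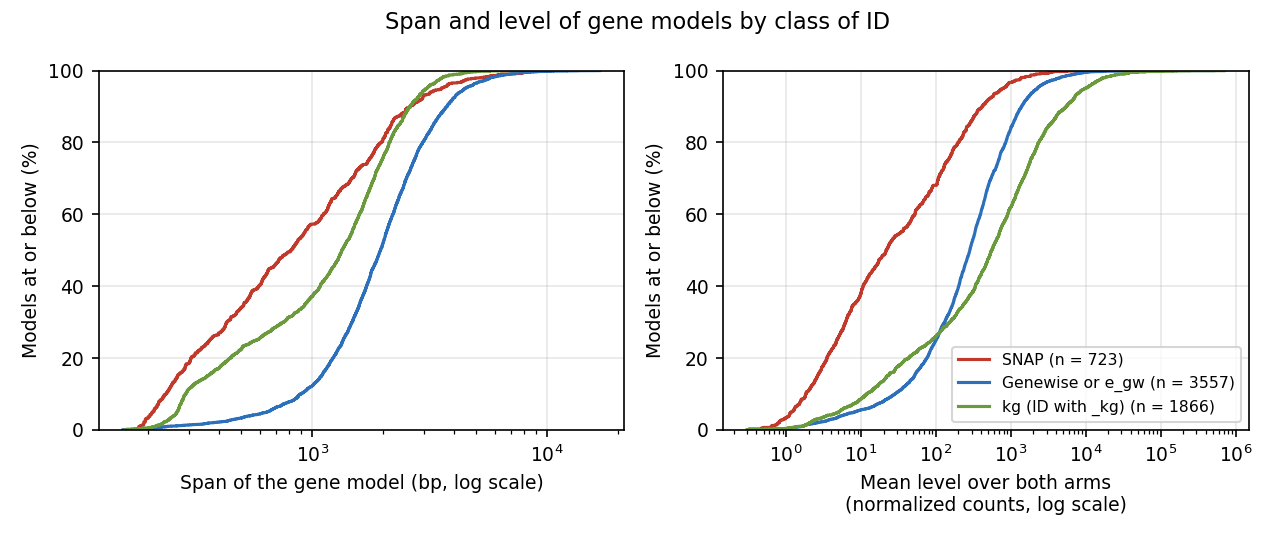
Cumulative share of gene models (vertical axis, %) at or below a given span in bp (left, log scale) and a given mean level over both arms in normalized counts (right, log scale), for SNAP, Genewise or e_gw and _kg models. The SNAP curve lies left of the Genewise or e_gw curve in both panels around the medians, which are 812 against 1952 bp and 21.7 against 284 normalized counts.

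Longer SNAP models had higher levels. From the shortest of 5 span classes to the longest (under 300, 300 to under 600, 600 to under 1200, 1200 to under 2400, and 2400 bp or more), the median level was 5.02, 7.81, 17.1, 87.1 and 210 normalized counts. Per kb the medians were 19.8, 19.9, 18.8, 49.3 and 53.7, nearly flat up to 1200 bp and higher beyond. The classes compared had a different course. Genewise or e_gw models had 20.7 normalized counts per kb under 300 bp, close to the SNAP value, but 138 between 600 and 1200 bp. The _kg models had 41.2 per kb under 300 bp and 586 between 600 and 1200 bp. From 1200 to under 2400 bp the medians were 156 for Genewise or e_gw models and 658 for _kg models. Taken as a ratio to the SNAP median, the gap per kb of span was widest from 600 to under 1200 bp.

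The summed level of the SNAP models was 1.302% of that of all models, against 30.4% for Genewise or e_gw models and 53.4% for _kg models. Over the 723 models the arm sums were 144812 normalized counts in B and 113562 in A, a ratio of 1.28, and few models carried much of this. Without the single highest model the ratio was 1.19, and without the 5 highest, which held 19.9% of the total, it was 1.14. Over the rows that are not SNAP models the ratio was 1.12.

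In the authors' deposited table, the 5 highest SNAP models were unlike each other in their difference between the arms. The highest, on scaffold 1 from 4359787 to 4364256, had 14813 normalized counts in B and 4481 in A, a 3.31-fold difference (DESeq adjusted p = 0.0063). The model on scaffold 6 from 1002393 to 1002827, of 435 bp, had 5370 in B and 1115 in A, and edgeR's adjusted p was 0.0005. The model on scaffold 8 from 676961 to 679010 had 5700 in B and 1765 in A (DESeq adjusted p = 0.0008). These 3 were higher in B. The other 2 did not pass the test: on scaffold 1 from 1403243 to 1403760 the levels were 4853 in B and 6313 in A (DESeq adjusted p = 0.571), and on scaffold 10 from 839094 to 840183 they were 3570 in B and 3372 in A (DESeq adjusted p = 0.917).

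SNAP models were listed at 0 in 1 of the arms more often than the other classes. In the authors' deposited table, 50 of 723 SNAP models were at 0 in 1 arm, or 6.92% (95% exact binomial interval 5.18 to 9.02%). The share was 0.731% for Genewise or e_gw models, 0.857% for _kg models and 1.65% for all models. Of the 50, 34 were at 0 in B and 16 at 0 in A. Models of all kinds leaned the same way, with 107 at 0 in B and 46 at 0 in A. Levels in the other arm were low, with a median of 5.10 normalized counts for those at 0 in B and 3.69 for those at 0 in A. An arm listed at 0 had 0 counts in its libraries. Its fold was taken against a set limit of 3 counts, a level of 1.15 in B and 0.961 in A. The limit leaves out the spread between replicates and the error of the other arm, so such folds are not strict bounds. In 4 of the 50 the other arm was itself at or under that limit, so no difference was detectable in them. DESeq called 25 of the 50 models and edgeR 35. Over all models the shares called were 15.0% with DESeq and 21.4% with edgeR. Choosing models at 0 in 1 arm favours large ratios, so these counts are not a result about SNAP models.

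Much of this excess went with level. Among models with a level from 1 to under 10, 10.8% of 250 SNAP models were at 0 in 1 arm (7.24 to 15.3%), against 9.14% of 186 Genewise or e_gw models and 5.88% of 153 _kg models, and the intervals overlapped. When the other classes were weighted to the spread of SNAP models over 6 classes of level, their shares at 0 were 5.45% for Genewise or e_gw and 4.04% for _kg models, set beside 6.92% for SNAP models. Against Genewise or e_gw models the remaining gap was clearest from level 10 upward, whereas against _kg models it also lay below. From 10 to under 50, 8 of 156 SNAP models were at 0 in 1 arm, or 5.13% (2.24 to 9.85%), against 1 of 318 Genewise or e_gw models, or 0.314% (up to 1.74%), and 3 of 234 _kg models, or 1.28% (up to 3.70%). Over all levels of 10 or more the counts were 9 of 448 SNAP models, or 2.01% (0.923 to 3.78%), 2 of 3360 Genewise or e_gw models, or 0.0595%, and 3 of 1705 _kg models, or 0.176%. With the same weighting, the shares from level 10 upward became 0.146% for Genewise or e_gw and 0.446% for _kg models. Intervals cover counting error only and take models as independent, which neighbours may not be.

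**Figure D2:**
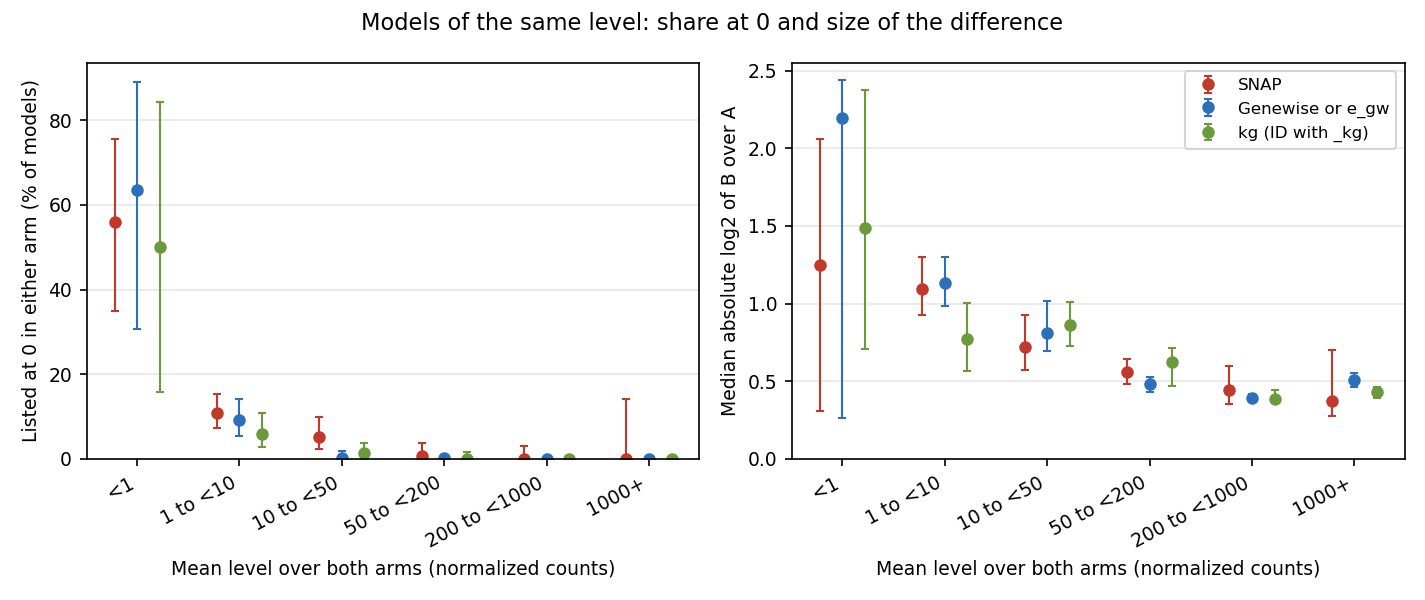
Share of models listed at 0 in either arm (left, %) and median absolute log2 of B over A among models above 0 in both arms (right) in 6 classes of level, for SNAP, Genewise or e_gw and _kg models; bars are 95% exact binomial intervals on the left and order-statistic intervals of the median on the right. The SNAP interval overlaps both others in each class of level on the right, while on the left SNAP models stand at 5.13% from level 10 to under 50, against 0.314% and 1.28%.

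The size of the difference between the arms was measured as the absolute log2 of B over A. For the 673 SNAP models above 0 in both arms its median was 0.69, against 0.48 for Genewise or e_gw models, 0.48 for _kg models and 0.51 for all models. At matched level nearly all of this gap closed: weighted to the SNAP levels, the medians were 0.67 for Genewise or e_gw and 0.65 for _kg models. By class of level, the SNAP median was 1.09 from 1 to under 10, 0.72 from 10 to under 50, 0.56 from 50 to under 200, 0.44 from 200 to under 1000 and 0.37 from 1000 upward. The Genewise or e_gw medians in the same classes were 1.13, 0.81, 0.48, 0.39 and 0.51, and those of _kg models were 0.77, 0.86, 0.62, 0.39 and 0.43. No class of models was widest at every level.

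In the authors' deposited table, 117 SNAP models had a DESeq adjusted p under 0.05, or 16.2% (13.6 to 19.1%). The B arm was higher in 53 of them and the A arm in 64. The background over all models was 15.0%, with 6.93% higher in B and 8.03% higher in A, so the SNAP share was near it. Genewise or e_gw models were called at 13.9% and _kg models at 14.0%. With edgeR, 168 SNAP models were called, or 23.2%, against a background of 21.4%, and 116 were called by both tools, against a background of 14.5%. At a stricter DESeq adjusted p under 0.01 there were 76 SNAP calls, or 10.5%, against a background of 9.60%. Of the calls, 45.3% of the SNAP ones were higher in B (36.1 to 54.8%), against 52.1% of those of Genewise or e_gw models, 35.2% of those of _kg models and 46.3% of all calls.

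Large differences stood further from the background. A DESeq call with a fold of 4 or more was made for 88 SNAP models, or 12.2% (9.88 to 14.8%), against a background of 7.10%. Weighted to the SNAP levels, Genewise or e_gw models had 7.70% and _kg models 8.08% of such calls, and all DESeq calls came to 11.9% and 12.3%, set beside 16.2% for SNAP models. Matched on level and span together, 4-fold calls came to 7.49% of Genewise or e_gw models and 11.0% of _kg models, which lies inside the SNAP interval. Under that matching the shares of all DESeq calls were 11.5% for Genewise or e_gw models and 15.0% for _kg models. The matching was chosen after the values were seen and for _kg models covers 703 of the 723 SNAP models. The gap to _kg models was narrower when short models were set against short ones.

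The balance of directions among the calls varied with level. Among SNAP models from level 1 to under 10, 8 calls had the higher level in B and 23 in A, and from 10 to under 50 there were 12 and 22. From 200 to under 1000 16 calls were higher in B against 4 in A, and from 1000 upward 5 and 1. All models together also turned from A to B with level, with 68 calls for B and 163 for A from level 10 to under 50, and 184 and 80 from 1000 upward. From 200 to under 1000, however, they were nearly even, with 239 for B and 205 for A. In that class Genewise or e_gw models had 112 and 83, and _kg models 27 and 44. Called SNAP models that were higher in B had a median level of 108, and those higher in A one of 16.4.

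**Figure D3:**
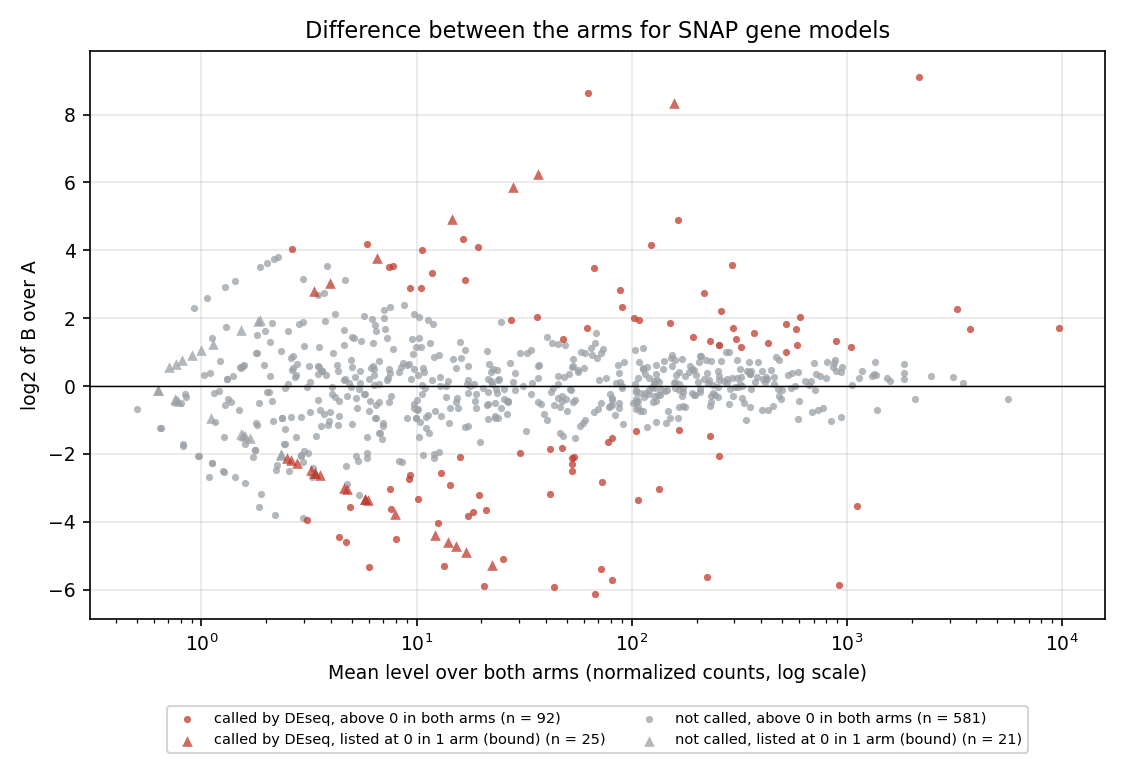
Log2 of B over A (vertical axis) against the mean level over both arms in normalized counts (log scale) for 719 SNAP models; red marks models called by DESeq, grey those not called, and triangles models at 0 in 1 arm, drawn at the bound that 3 counts set. Below level 50 more red points lie under the zero line than above it, and beyond level 200 most lie above it.

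Among called SNAP models with a level of at least 50 in the authors' deposited table, the largest computed fold with B higher was that of scaffold_13-snap.4.1 (protein 19483), a model of 228 bp on the minus strand of scaffold 13 from 8577 to 8804. It had 4324 normalized counts in B and 7.76 in A, a 557-fold difference (edgeR adjusted p = 1.47e-16, worked out from its likelihood ratio because the authors' deposited table prints 0). The next SNAP model on that scaffold, from 9865 to 10086 on the plus strand, behaved likewise, with 313 normalized counts in B and 0 in A, which is at least 326-fold higher in B (edgeR adjusted p = 2.80e-14). Since this fold rests on a set limit and not on a measured level in A, its place relative to the computed folds is not known. The 2 models face away from each other across 1060 bp.

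The model scaffold_4-snap.202.1 (protein 23064) spanned 2232 bp of scaffold 4 from 737322 to 739553 and is listed by the authors' deposited table with 125 normalized counts in B. In A it had 0.312, which is the worth of 1 count, so its ratio of 400 has a wide counting interval, from 71.8 to 15793. Several smaller differences were better supported by counts in both arms. On scaffold 6 the model from 2201913 to 2202845 had 318 normalized counts in B and 10.7 in A, a 29.6-fold difference, and the model from 276521 to 277364 had 538 in B and 45.3 in A, an 11.9-fold difference. The 264 bp model on scaffold 9 from 1258136 to 1258399 had 234 in B and 13.1 in A, with the weakest edgeR support of the 10 largest (adjusted p = 0.0057). The tenth was 5.03-fold higher in B.

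In the other direction, scaffold_1-snap.1193.1 (protein 18338), of 243 bp on scaffold 1 from 4370893 to 4371135, had 1.92 normalized counts in B, made of 5 counts, and 133 in A in the authors' deposited table. Its log2 of B over A was -6.12 (edgeR adjusted p = 6.46e-13, from the likelihood ratio). The strongest statistical support of all named models belonged to scaffold_9-snap.36.1 (protein 26313), of 487 bp on scaffold 9 from 110515 to 111001. It had 31.1 normalized counts in B and 1803 in A, a log2 of -5.86 (edgeR adjusted p = 3.25e-41, from the likelihood ratio). On scaffold 1 the model from 4682577 to 4683669 had 8.85 in B and 441 in A, and on scaffold 6 the model from 920813 to 921532 had 3.32 in B and 141 in A. The longest of the 10, 7877 bp on scaffold 15 from 456340 to 464216, had 178 in B and 2054 in A, a log2 of -3.53. The tenth, on scaffold 4 from 859934 to 861031, had 15.9 in B and 89.5 in A (DESeq adjusted p = 0.0002).

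In the authors' deposited table, the 14 SNAP models at 0 in 1 arm with at least 10 normalized counts in the other comprised 9 at 0 in B and 5 at 0 in A. Among models of all kinds and levels, too, more were at 0 in B (107) than in A (46). All 14 were called by both tools, as were all 39 models of the whole table chosen by the same rule, so the calls follow from the choice. The 14 lay on 11 scaffolds, and 10 of the 14 spans were multiples of 3. Among the 9 at 0 in B, the highest level in A was 44.7, for a 267 bp model on scaffold 2 from 1444034 to 1444300. Set against the limit of 3 counts, it was 38.7-fold lower in B. The smallest such fold of the 14 was 9.96, for a model on scaffold 12 from 46249 to 47748 with 0 in B and 11.5 in A. Besides the scaffold 13 model above, those at 0 in A included a 2135 bp model on scaffold 1 from 4709728 to 4711862 with 72.9 in B and a 2208 bp model on scaffold 4 from 698894 to 701101 with 56.4 in B. Whether the genes are present in both isolates was not tested.

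**Figure D4:**
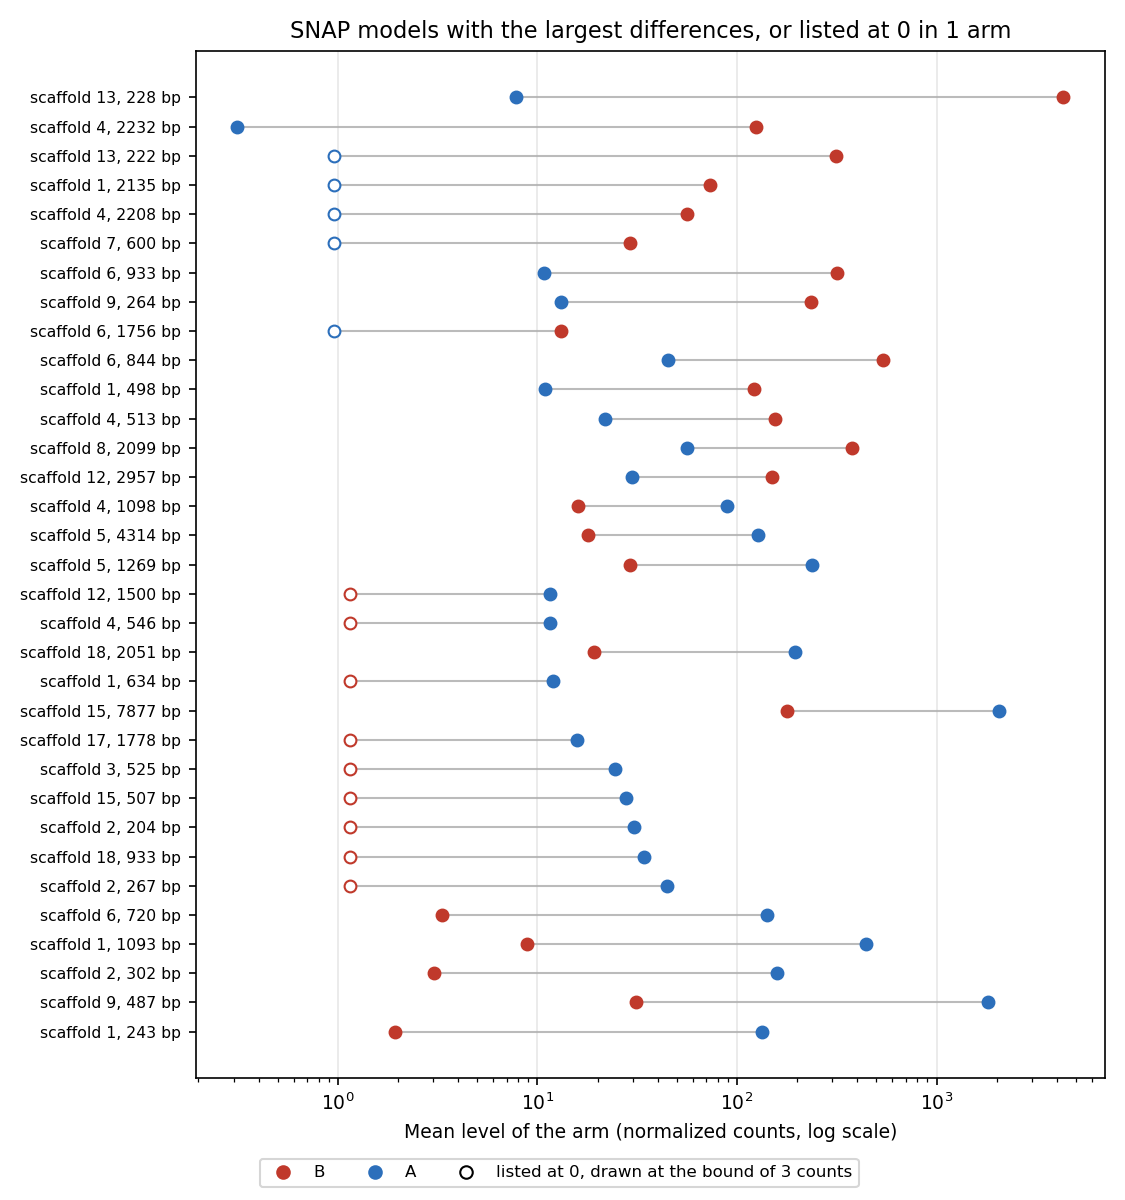
Level of the arms B (red) and A (blue) in normalized counts (log scale) for the 10 SNAP models with the largest folds in each direction and those at 0 in 1 arm with at least 10 in the other, labelled by scaffold and span; open circles mark an arm at 0, drawn at the bound of 3 counts. The top line joins 4324 in B to 7.76 in A, and the bottom line 1.92 in B to 133 in A.

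The 3 shortest SNAP models in the authors' deposited table, each of 180 bp, had levels between 5.21 and 11.4, and none was called. Over the wider end classes, 16 of 134 SNAP models under 300 bp were called, or 11.9%, and 11 of 87 of 2400 bp or more, or 12.6%, against 16.2% of all SNAP models. Models of all kinds had 9.49% called under 300 bp and 11.8% at 2400 bp or more, so the SNAP shares were near these. Of the 3 longest, those of 8473 and 8968 bp were not called by either tool. The third, 8853 bp on scaffold 13 from 512422 to 521274, had 123 normalized counts in B and 339 in A, with an adjusted p of 0.0171 by DESeq and 0.0822 by edgeR.

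SNAP models were also split by whether their span was a multiple of 3, a split that was made after the values were seen. The 402 with such a span had a median span of 553.5 bp and a median level of 12.6, against 1232 bp and 51.4 for the other 321. They were called by DESeq at 19.4% (15.7 to 23.6%), and the others at 12.1% (8.78 to 16.2%). The gap was clearest at levels from 10 to under 200, a range joined after the values were seen. There 45 of 164 were called, or 27.4% (20.8 to 34.9%), against 15 of 140, or 10.7% (6.12 to 17.1%). It was small in the neighbouring classes of level, with 12.8% against 11.6% from 1 to under 10 and 17.8% against 16.0% from 200 to under 1000. From 1000 upward 4 of 12 were called against 2 of 12, with wide intervals. Over all models from level 10 to under 200, 20.6% were called among spans that were multiples of 3 and 16.0% among the others. In the same range, Genewise or e_gw models had 18.3% called among spans that were multiples of 3 and 14.9% among the others, and _kg models had 20.6% and 19.5%. The 45 called SNAP models were split nearly evenly, 22 for B and 23 for A, while the 15 others were 2 and 13. Calls over all models in this range leaned to A in both groups. There were 91 for B and 188 for A among multiples of 3, and 106 and 211 among the others. Genewise or e_gw models had 29 and 59 among multiples of 3, and _kg models 4 and 29. Span moved with this split, and its part in the difference was not tested.

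SNAP models were spread over the assembly. They occurred on 34 of 64 scaffolds, among them all 23 with at least 40 models, and 14 lay on smaller scaffolds. On the 23 their share ran from 1.56% of the models on scaffold 20 to 13.1% on scaffold 18. The 12 scaffolds that reach 1000 kb or more had 7.46% SNAP models (6.88 to 8.07%), and the 11 shorter ones 9.74% (8.21 to 11.5%). Near the scaffold ends, differences between the classes were within counting error. Within 50 kb of an end lay 57 of 709 SNAP models, or 8.04% (6.15 to 10.3%), against 6.49% of Genewise or e_gw models, 6.19% of _kg models and 6.37% of all models, and the SNAP interval contains all 3 of these values. More than 500 kb from an end lay 45.0% of SNAP models (41.3 to 48.7%), against 51.3% of Genewise or e_gw and 51.0% of _kg models. On scaffold 18, 33 models of all kinds were called, or 33.3%, of which 22 were higher in A. Of its 13 SNAP models 5 were called, all higher in A. On scaffold 11, where 6.62% of all models were called, 0 of 15 SNAP models were. Both scaffolds were picked as extremes after the values were seen.

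**Figure D5:**
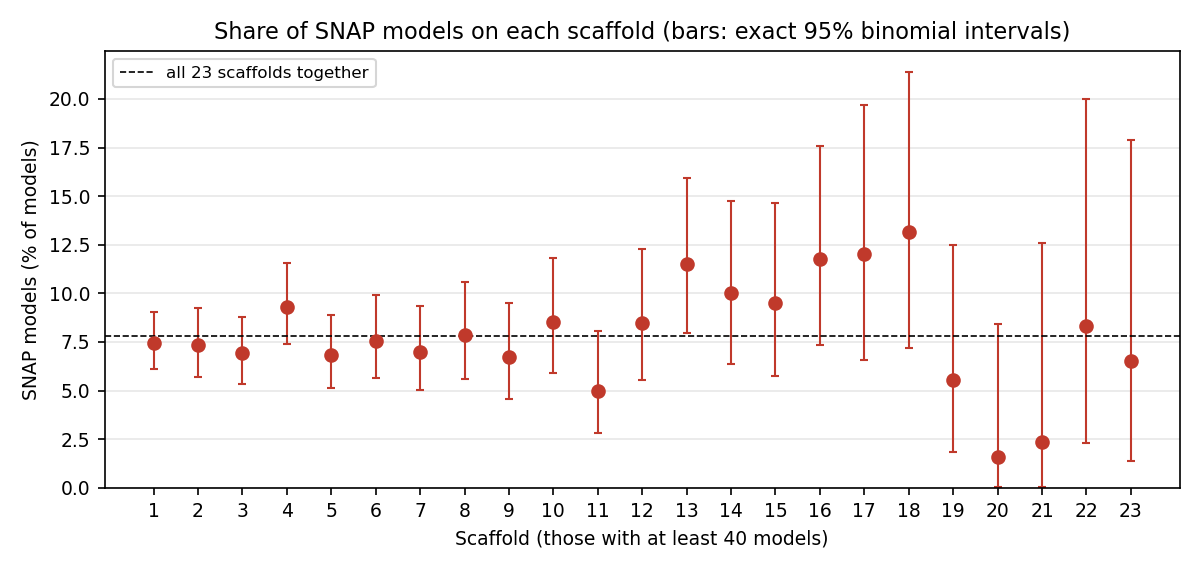
Share of SNAP models among the models of each of the 23 scaffolds with at least 40 models (points, %), with 95% exact binomial intervals (bars) and the share over all 23 (dashed line, 7.80%). Scaffolds 13 to 18 lie above the dashed line, up to 13.1% on scaffold 18, with wide intervals.

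The number within a SNAP ID follows the start position on 34 of 34 scaffolds. On scaffold 1 the numbers reach 1330, where the table holds 97 SNAP models among 1301 models of all kinds. Summed over the scaffolds, the highest numbers come to 9147, close to the 9200 models of all kinds on them and above the 723 SNAP models in the table.

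The authors' deposited table had 82 pairs of neighbouring models that were both SNAP models, with a median gap of 842 bp. In 8 of these pairs, or 9.76% (4.31 to 18.3%), both were called by DESeq in the same direction, and in 1 pair in opposite directions. The same held for 44 of 1274 pairs with 1 SNAP model, or 3.45% (2.52 to 4.61%), and for 217 of 7860 pairs with none, or 2.76% (2.41 to 3.15%). These pairs were looked at after the values were seen. On scaffold 2 the models from 214182 to 214385 and from 214579 to 214880, on the same strand with 193 bp between them, had 0 and 3.04 normalized counts in B and 30.4 and 159 in A. On scaffold 1, those from 4709132 to 4709344 and from 4709728 to 4711862, again on the same strand, had 7.95 and 72.9 in B and 0 in A in both. Whether the models of such a pair belong to a single gene was not tested, and they are not counted as independent. Of the 117 called SNAP models, 51, or 43.6% (34.4 to 53.1%), had a call of the same direction beside them, against 31.1% for Genewise or e_gw models, 34.9% for _kg models and 34.1% for all called models.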

How the data were processed

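Values come from 1 comparison table that the authors deposited. Per the file headers, the table gives for DESeq the mean signal of both arms together (counts divided by size factors), that of each arm, and p-values with their adjusted form. For edgeR it gives, again per the file headers, log2 fold changes, the mean log2 CPM, the score of the likelihood ratio test and its p-value with false discovery rate. The deposited p-values have 4 decimals. The tools, per the submitters' processing notes, included TopHat2 2.1.1, cutadapt 1.3, FastQC 0.11.4, SAMtools, HTSeq, DESeq and edgeR, in roles that the notes leave unnamed. The genome build is not given in the sources used here, and coordinates are those of the table.

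The count tests foreseen were replaced by the authors' deposited statistics, since the table holds 1 mean per arm. A model is called when the authors' adjusted p of DESeq is under 0.05. Each log2 value is that of the B mean over the A mean. Where the authors' edgeR column prints 0, the adjusted p was computed from the likelihood ratio with 1 degree of freedom and Benjamini-Hochberg adjustment over 9280 rows, which differed from the deposited values by at most 0.0025. Means under 3 were decomposed into whole counts of 3 libraries, with a tolerance of 0.0004, and each of 97 distinct values in B and 116 in A had exactly 1 decomposition. The bound for an arm at 0 is a set limit of 3 counts, which leaves out the spread between replicates. Intervals for shares are exact Clopper-Pearson intervals at 95%.

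For values at matched level, models of the other classes were weighted to the number of SNAP models in 6 classes of level (limits 1, 10, 50, 200 and 1000 normalized counts). On simulated data for SNAP against Genewise or e_gw models (4280 models, 20 runs), a true ratio of 1 in the median absolute log2 came out as 1.26 without weights and 1.01 with them, and a true ratio of 1.5 as 1.90 and 1.55. The simulated spread fell with level alone and no model was at 0, so weighting by level had to recover the ratio. In the measured values of all models, the median absolute log2 rose again, from 0.41 at 200 to under 1000 to 0.48 from 1000 upward. The simulation therefore checks the weighting step only, not the matched comparison. Named models are the 10 largest folds in each direction among called models with a level of at least 50, the 5 highest levels, all at 0 in 1 arm with at least 10 in the other, and the 3 shortest and 3 longest. Of their IDs, 2 per direction are printed. The members, lists and classes were chosen with earlier results of these data known. Python 3.11.15, pandas 2.3.3, NumPy 2.4.6, SciPy 1.17.1 and Matplotlib 3.10.9 were used.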

Additional observations from a re-analysis of the deposited data

Results flagged for a closer look

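1 SNAP model stood out in a value that does not enter the log2 of B over A used here. The average log2 CPM of edgeR in the authors' deposited table lay 1.18 above what the mean level of the arms gives, relative to the median over all models with a level of at least 100, for the 7808 bp model on scaffold 11 from 980577 to 988384. Its levels were 221 normalized counts in B and 266 in A (DESeq adjusted p = 0.818). Of 231 SNAP models at such levels it was the only one above 1, as were 28 of 6148 models in all, and the SD over those SNAP models was 0.290. Which libraries entered the edgeR average is not given in the sources used here.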

How the results depend on the processing

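No paired analysis was possible because the table holds 1 mean per arm and its columns carry no replicate number. For the same reason the other normalization, DESeq2 and leaving out a replicate were not run. Of 48 alternative values of the summaries, 34 stayed within the limits set for them and 14 moved. These summaries are counts, shares and medians, which have no direction to change. For the 20 models with the largest folds, the edgeR log2 and equal arm totals kept every direction, and edgeR kept every call. They were chosen as DESeq calls with large folds, so a shift of 0.17 could not reverse them. Their agreement is therefore no independent check. The 8853 bp model on scaffold 13, called by DESeq (adjusted p = 0.0171), was not called by edgeR (0.0822). The count of called SNAP models was 76 with a DESeq limit of 0.01 on the adjusted p, 40 of them with A higher. Those higher in B numbered 81 with edgeR and 32 with a fold of 4 or more, called models at 0 in A included. Those higher in A numbered 41 at a level of 10 or more, where 19.2% of SNAP models and 15.8% of all models were called. The share at 0 was 15.6% if an arm mean of at most 1 counted as 0 and 2.01% at a level of 10 or more. At that level the median span was 1288 bp and the median absolute log2 0.56. Within 20 kb of an end lay 3.10% and within 100 kb 14.5% of SNAP models. For Genewise or e_gw models, the weighted absolute log2 was 0.69 with classes of 1 log2 unit. Matching on level and span together, chosen after the data were seen, gave 4.73% at 0 for Genewise or e_gw models and 15.0% called for _kg models. Scaling the arms to equal totals shifts every log2 by 0.17. The causes of these shifts were not tested. Means without counts limit what low levels can show.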
